A study of Mus musculus with 15 samples.

Results

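The 30 genes described here mark the oligodendrocyte lineage, the glial cells that wrap axons in myelin. They were taken from a fixed list by symbol and matched by Ensembl gene ID, and 30 of 30 were found among the 21889 genes of the count tables. They were divided into 9 precursor members, which mark precursors and committed precursors, and 21 myelin members, which mark differentiating and myelin-forming cells. The study profiled poly(A) RNA of mouse cerebellar cells purified on Percoll, in 15 libraries of 5 groups with 3 libraries each. Granule neuron precursors, the proliferating cells of the granule neuron lineage, were labelled E15.5 with the genotype Math1-GFP, and P1, P7 and P14 with the genotype WT. Medulloblastoma cells (MB), from a tumour of the cerebellum, were labelled Ptch1 heterozygous and carried no age. The labels do not say whether a library came from 1 animal or from several, so the spread between libraries may be partly technical. The labelled cell type is not an oligodendrocyte, and the granule precursor markers, among them Atoh1, Zic1 and Pax6, were found in every group, with a sum over 8 markers between 2912 and 8201 scaled counts (CPM).

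Oligodendrocytes arise from precursors that divide and carry the platelet-derived growth factor receptor Pdgfra and the proteoglycan Cspg4. The transcription factors Olig1, Olig2, Sox10 and Nkx2-2 specify the lineage, Gpr17 and Enpp6 mark cells that have left the precursor state, and Myrf then drives the genes of the myelin sheath. In the cerebellum most myelin forms after birth, in the white matter beneath the layers where granule neurons are born. These libraries are bulk samples, in which fewer cells of a type and less RNA per cell cannot be told apart.

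Promoter sequence is shown for 4 members, to place the letters before the start of transcription beside the levels that follow. RefSeq promoters (GRCm38.p6) matched 23 of the 30 members, with 32 starts, and the 250 bases before each start were searched on both strands. The letters ACAAAG and ACAATG, which Sox proteins such as Sox10 bind, were searched together with the E-box letters CAGCTG and CATATG. The first 2 motifs share their first 4 letters, and no position can hold both on the same strand. Mobp, Cnp and Opalin are myelin members with ACAAAG, and Olig2 is a precursor member with ACAATG. The genes were chosen after their values and matches were seen. Each sequence is written from 5′ to 3′ on the gene's own strand and ends at the base before the start. Capitals mark ACAAAG or ACAATG on either strand, so that CTTTGT and CATTGT are capitals too. The Mobp sequence is chr9:120149492-120149741, plus strand; that of Cnp is chr11:100574689-100574938, plus strand; that of Opalin is chr19:41077114-41077363, minus strand; and that of Olig2 is chr16:91225300-91225549, plus strand.
Mobp: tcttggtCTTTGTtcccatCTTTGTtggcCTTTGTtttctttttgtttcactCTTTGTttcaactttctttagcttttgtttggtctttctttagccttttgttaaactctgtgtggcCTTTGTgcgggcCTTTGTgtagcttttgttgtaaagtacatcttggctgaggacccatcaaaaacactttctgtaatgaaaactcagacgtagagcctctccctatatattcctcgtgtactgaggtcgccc
Cnp: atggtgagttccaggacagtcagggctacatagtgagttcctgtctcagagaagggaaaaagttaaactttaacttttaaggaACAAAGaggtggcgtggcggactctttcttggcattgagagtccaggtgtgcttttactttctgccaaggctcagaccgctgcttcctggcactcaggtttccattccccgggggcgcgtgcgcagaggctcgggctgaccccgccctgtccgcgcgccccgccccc
Opalin: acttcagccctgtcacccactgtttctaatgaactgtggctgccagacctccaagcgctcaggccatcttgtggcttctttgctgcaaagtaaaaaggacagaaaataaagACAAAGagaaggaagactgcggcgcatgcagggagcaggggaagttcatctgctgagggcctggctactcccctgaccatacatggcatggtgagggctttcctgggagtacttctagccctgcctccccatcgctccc
Olig2: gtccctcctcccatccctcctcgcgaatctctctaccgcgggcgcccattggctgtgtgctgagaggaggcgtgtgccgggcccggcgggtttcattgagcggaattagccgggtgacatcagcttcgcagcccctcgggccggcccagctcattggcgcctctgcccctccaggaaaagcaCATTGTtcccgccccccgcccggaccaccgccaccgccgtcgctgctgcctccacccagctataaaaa
The Mobp sequence held 6 copies of ACAAAG, all read as CTTTGT on the printed strand, and it was 1 of 32851 promoters with at least 6. ACAAAG was found in 11 of the 32 member promoters (34.4%), belonging to 8 of the 23 members, and in 16.5% of all 32851 promoters of the same length. ACAATG was found in 6 of the 32 (18.8%) against 10.7% of all promoters. CAGCTG was found in 1 of the 32 (3.12%) against 13% of all, and CATATG in 3 of the 32 (9.38%) against 3.46%. A match is only a description of these letters, and starts of 1 gene share sequence.

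Between 12597472 and 43443132 reads per library were counted in genes. The library labelled P1 replicate 3 stood apart from its group. On the first principal component of all genes, which held 40.4% of the variance, it lay at 68.8, the other P1 libraries at 14.5 and 51.7, the P7 libraries between 23.4 and 36.7 and the P14 libraries between 83.4 and 90.2. Values without it are therefore given beside results that use P1. The libraries also fell into 2 counting sets, seen in Tsnax, whose gene count was at least 92.4% of its transcript count in 9 libraries and at most 0.27% in 6. The 6 included every P7 library and the 9 every library of P1 and of P14, so in comparisons of P7 with those ages the set cannot be told apart from age. Of 29 members with a transcript row, none differed between the sets by more than 0.028 on the log2 scale in the share of transcript reads that the gene table counted.

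All 30 members passed the filter on low counts and were tested among 15259 genes with edgeR's quasi-likelihood F-test, where a gene was called at a Benjamini-Hochberg false discovery rate (FDR) under 0.05. All 30 were called for a difference among the 4 ages, beside 55.7% of all genes tested, and 29 were called without the library labelled P1 replicate 3. Levels are CPM scaled by TMM, a method that corrects library totals for composition, and they are listed in the order of replicates 1, 2 and 3.

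**Figure D1:**
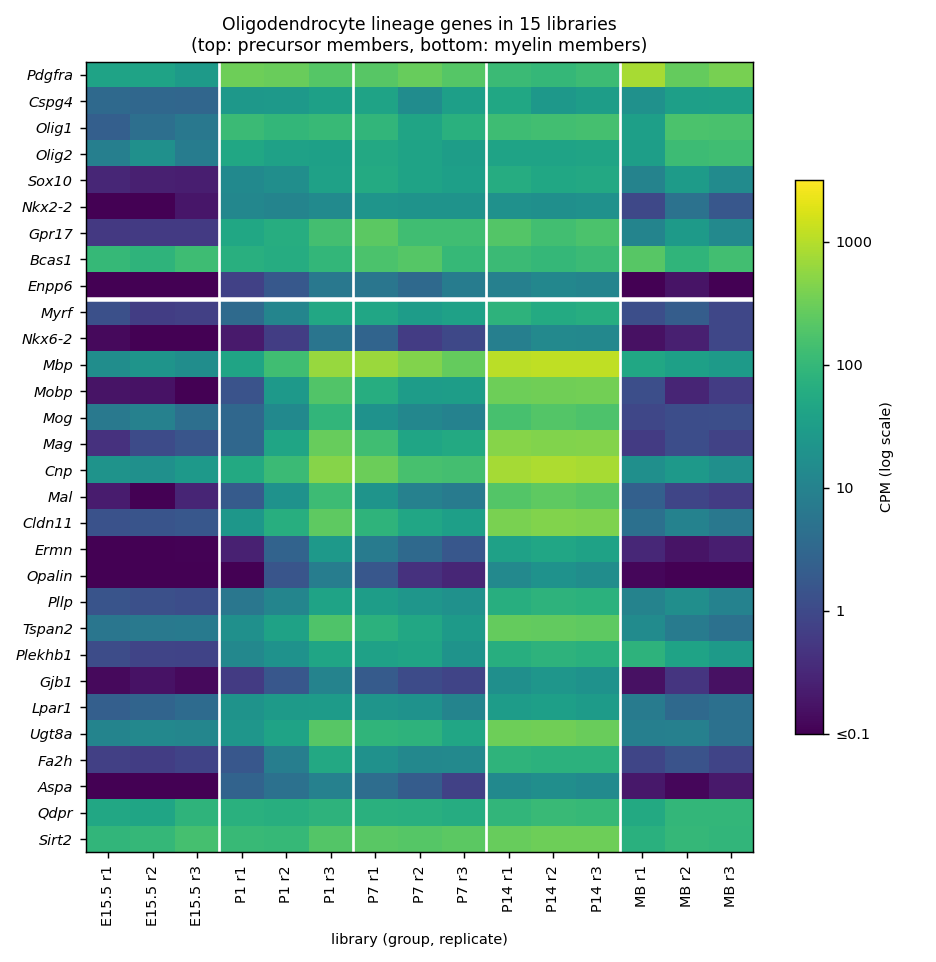
Level of the 30 members (rows) in each of the 15 libraries (columns, 3 per group), as CPM on a logarithmic colour scale with values of 0.1 and under in the darkest colour. Most of the lower 21 rows are brightest at P14, as for Mbp at 1069 to 1194 CPM, and dark at E15.5 and in MB, but Sirt2 and Qdpr are bright in every library and Plekhb1 is bright in MB (28.1 to 80.4 CPM), as is Pdgfra above the line.

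Of the 9 precursor members, 8 were called higher at P1 than at E15.5, with Bcas1 as the exception, and the count was 8 also without the library labelled P1 replicate 3. The summed level of the 9 was 162 ± 9.84 CPM (SD, n = 3) at E15.5, 649.7 ± 31.1 at P1, 771 ± 125 at P7 and 688 ± 60.0 at P14. The sums at P1, P7 and P14 overlapped, between 617 and 885 CPM, and all lay above the highest E15.5 sum of 173 CPM. Bcas1 held 105 CPM of the E15.5 sum. Pdgfra held 276 CPM of the P1 sum, and the sum of the other 8 was 374 ± 87.6 CPM at P1, 534 ± 121 at P7 and 575 ± 49.0 at P14. At P1 the median member stood at 68.0% of its P14 mean.

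Pdgfra, the receptor through which precursors receive their growth signal, is at chromosome 5, 75548316 to 75594229, in the mm9 build. It lay at 41.1, 41.1 and 28.1 CPM at E15.5, 321.3, 301.4 and 204 at P1, 217.1, 288.6 and 204.6 at P7, 117.7, 98.9 and 121.9 at P14. Its P14 libraries lay below all P1 and P7 libraries and above those of E15.5. Its log2 fold change was 2.91 ± 0.34 (SE) for P1 against E15.5 (FDR 1.2e-05; without P1 replicate 3, 3.08, FDR 2.0e-05) and -1.07 ± 0.32 for P14 against P7 (FDR 0.048). The second call was lost when any single library of P7 or P14 was left out, with FDR between 0.066 and 0.18. Cspg4, the NG2 proteoglycan of precursors, lay at 3.45, 3.17 and 3.05 CPM at E15.5, 24.8, 26.9 and 35.6 at P1, 40.5, 15.7 and 34.1 at P7, 47.8, 24.8 and 32.1 at P14. Its span of 34767 bases lies within the span of another annotated gene on the same strand. The gene table still counted 99.55% and 99.49% of its transcript reads in the 2 counting sets. Its postnatal libraries overlapped, and each lay above the E15.5 libraries, with a log2 fold change of 3.17 ± 0.38 for P1 against E15.5 (FDR 1.3e-05; without P1 replicate 3, 3.00, FDR 6.2e-05). Fibroblasts also carry Pdgfra and pericytes Cspg4. The sum of 7 other fibroblast markers was 28.2 to 44.3 CPM at E15.5, 706 to 1276 at P1, 424 to 655 at P7 and 594 to 797 at P14. That of 7 other pericyte markers was 32.2 to 59.8, 359 to 699, 300 to 459 and 877 to 988. The part of these cells was not tested.

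Olig2, the basic helix-loop-helix factor that founds the lineage, is at chromosome 16, 91225795 to 91228922. It lay at 8.85, 18.1 and 7.67 CPM at E15.5, 48.4, 37.4 and 36.7 at P1, 52.6, 40.2 and 31.5 at P7, 40.6, 41.5 and 43.3 at P14. Among the transcription factors it was the highest at E15.5, and from P1 on its libraries stayed between 31.5 and 52.6 CPM. Its neighbour Olig1 lay at 2.27, 4.34 and 6.22 CPM at E15.5, 116.4, 95.6 and 108.3 at P1, 91.04, 42.1 and 71.7 at P7, 127.5, 137.8 and 146.5 at P14. Sox10, which acts from the precursor to the myelinating cell, lay at 0.31, 0.25 and 0.24 CPM at E15.5, 13.6, 16.9 and 37.5 at P1, 55.9, 41.3 and 34.2 at P7, 60.4, 48.1 and 52.98 at P14. It was close to 0 at E15.5, with 19 counts over 3 libraries, and higher at P1 in every library, with a log2 fold change of 6.41 ± 0.54 (FDR 6.4e-07; without P1 replicate 3, 5.84, FDR 9.3e-07). Nkx2-2, a homeobox factor of the step to differentiation, lay at 0.087, 0 and 0.18 CPM at E15.5, 12.02, 10.9 and 14.3 at P1, 22.4, 20.8 and 20.5 at P7, 18.9, 17.1 and 18.7 at P14. Its P7 libraries lay just above those of P14, and no pairwise difference among the postnatal ages was called, with or without P1 replicate 3.

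Gpr17, a receptor of committed precursors, lay at 0.57, 0.58 and 0.58 CPM at E15.5, 47.7, 64.6 and 141.8 at P1, 234.8, 129.99 and 129.8 at P7, 199, 138.8 and 165.5 at P14. Its P1 libraries were spread, with the library labelled P1 replicate 3 inside the range of P7 and P14 and the other 2 below it. Gpr17 lies opposite Lims2, another gene of the lineage, and the spans of the genes overlap over 6640 bases. The library kit does not mark strand, so reads where exons overlap cannot be told apart. The gene table counted 91.45% and 91.49% of the Gpr17 transcript reads in the 2 counting sets. Enpp6, a choline phosphodiesterase of newly formed oligodendrocytes, lay at 0, 0 and 0.026 CPM at E15.5, 0.73, 1.71 and 6.22 at P1, 5.79, 3.45 and 7.704 at P7, 9.17, 12.1 and 10.8 at P14. Only 1 count was found at E15.5, and the ratio of P1 to E15.5 was 218, with an exact 95% counting interval of 38.7 to 8651, or 90.7 (15.7 to 3639.9) without P1 replicate 3. Bcas1, a protein of early myelinating cells, ran differently, at 104.1, 85.5 and 126.5 CPM at E15.5, 68.4, 61.5 and 94.3 at P1, 165.2, 208.8 and 103.3 at P7, 114.6, 101.3 and 115.4 at P14. It stood near 100 CPM at E15.5, where Sox10 was at most 0.31 CPM, and its log2 fold change for P1 against E15.5 was -0.50 ± 0.30 (FDR 0.19; without P1 replicate 3, -0.70, FDR 0.11). Without the library labelled P1 replicate 3, Sox10, Gpr17, Enpp6 and Bcas1 were called higher at P7 than at P1, by 1.52, 1.56, 2.20 and 1.30 on the log2 scale (FDR 0.028, 0.031, 0.032 and 0.040).

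The myelin members were low at E15.5 and at their highest at P14. Of the 21, 19 were called higher at P1 than at E15.5, with Qdpr and Sirt2 as the exceptions, so that 27 of 30 members were called higher and 0 lower, where 25.4% of all genes were called higher and 20.9% lower. At an unadjusted p under 0.05 edgeR also had 0 lower, and DESeq2 called 0 lower. Their median log2 fold change was 4.79 and that of the precursor members 4.62, against 0.03 over all genes. Without the library labelled P1 replicate 3, 25 of 30 were called higher and 0 lower, beside 22.5% and 17.6% of all genes, and the myelin median was 3.00. E15.5 differs from P1 in the genotype label as well as in age, and these cannot be told apart.

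Several lists of markers of other cell types moved along with this rise, and others did not. Of 6 interneuron markers 0 were called higher and 6 lower at P1 than at E15.5, and of 6 Purkinje markers 2 higher and 1 lower. Of 10 astroglial markers 10 were called higher at P1 than at E15.5, of 7 endothelial markers 7, of 7 pericyte markers 7, of 7 meningeal fibroblast markers 7 and of 10 microglial markers 9. The endothelial sum was 11.2 to 30.6 CPM at E15.5 and 382 to 583 at P1, and the fibroblast sum 28.2 to 44.3 and 706 to 1276, with no marker of either list at 0 counts in a group. Without the library labelled P1 replicate 3 the counts were 10 of 10 astroglial, 7 of 7 endothelial, 7 of 7 pericyte, 7 of 7 fibroblast and 9 of 10 microglial markers. Of the interneuron markers 0 were then called higher and 5 lower, and of the Purkinje markers 1 higher and 2 lower. Of 6 choroid plexus markers 5 were called higher and 0 lower at P1 than at E15.5, with or without P1 replicate 3. Their sum was 96.1 to 379 CPM at E15.5, 406 to 10480 at P1, 51.8 to 2020.5 at P7 and 5175.5 to 8563 at P14. The part of other cell types in the rise of the oligodendrocyte genes was not tested.

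Myrf and Nkx6-2 are the transcription factors among the myelin members. Myrf, the factor that turns on myelin genes, lay at 1.26, 0.67 and 0.71 CPM at E15.5, 3.56, 10.97 and 49.02 at P1, 46.9, 30.9 and 37.7 at P7, 80.8, 56.1 and 63.8 at P14. Nkx6-2, a homeobox factor of oligodendrocyte maturation, lay at 0.13, 0 and 0.053 CPM at E15.5, 0.21, 0.66 and 5.58 at P1, 2.78, 0.63 and 0.96 at P7, 8.93, 12.9 and 12.8 at P14. Myrf was at 57.5% of its P14 mean by P7 and Nkx6-2 at 12.6%, and only Nkx6-2 was called higher at P14 than at P7 (2.98 ± 0.88, FDR 0.044). For Nkx6-2, 5 counts were found at E15.5, and the call against P1 (4.90 ± 1.25, FDR 0.0051) was lost without the library labelled P1 replicate 3 (2.62, FDR 0.061).

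Mbp and Mobp are structural proteins of compact myelin, and Mbp had the highest level of all members at P14. Mbp, myelin basic protein, is at chromosome 18, 82644554 to 82755029. It lay at 16.2, 21.1 and 15.9 CPM at E15.5, 41.7, 129.5 and 645.3 at P1, 675.6, 443 and 274.8 at P7, 1069, 1194 and 1186 at P14. Its P14 libraries were above all others, and the P1 libraries ran from near the E15.5 level up to the P7 level. Its log2 fold change was 3.94 ± 0.71 for P1 against E15.5 (FDR 4.3e-04; without P1 replicate 3, 2.27, FDR 7.2e-04) and 1.31 ± 0.64 for P14 against P7 (FDR 0.19). Mobp, another basic protein of compact myelin whose promoter is printed above, is at chromosome 9, 120058860 to 120085209. It lay at 0.17, 0.17 and 0 CPM at E15.5, 1.42, 26.2 and 186.4 at P1, 64.4, 30.5 and 31.5 at P7, 315.2, 338.9 and 342.6 at P14. From 6 counts at E15.5, the ratio of P1 to E15.5 was 909.6 (exact 95% counting interval 418 to 2479.7), and most P1 counts, 4948 of 5656, came from the library labelled P1 replicate 3. Without it the ratio was 175 (80.2 to 479.6). The P14 libraries again lay above all others, and for P14 against P7 the log2 fold change was 2.98 ± 0.97 (FDR 0.064).

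Proteins of the outer and inner faces of the sheath followed. Mog, on its outermost surface, lay at 6.59, 9.35 and 4.41 CPM at E15.5, 3.13, 13.6 and 91.9 at P1, 19.9, 11.97 and 9.94 at P7, 157.3, 195.8 and 175.9 at P14. All of its E15.5 libraries lay above P1 replicate 1. Its log2 fold change for P1 against E15.5 was 2.44 ± 0.77 (FDR 0.018), and without the library labelled P1 replicate 3 it was 0.33 (FDR 0.61). Mag, the adhesion protein on the side of the axon, lay at 0.44, 1.09 and 1.52 CPM at E15.5, 3.13, 44.04 and 279.4 at P1, 129.3, 43.8 and 53.04 at P7, 479.1, 441.4 and 461.8 at P14. For P14 against P7 Mog was called (3.66 ± 0.80, FDR 0.014) and Mag was not (2.61 ± 0.92, FDR 0.080). Cnp, the phosphodiesterase that keeps cytoplasmic channels open, lay at 20.2, 18.3 and 27.05 CPM at E15.5, 54.8, 115.2 and 480.8 at P1, 312.1, 154.7 and 141.8 at P7, 795.4, 890.6 and 829.9 at P14. It was found at all ages, from 18.3 CPM up, and its log2 fold change was 2.05 ± 0.56 for P14 against P7 (FDR 0.033) and 1.95 ± 0.56 for P14 against P1 (FDR 0.043; without P1 replicate 3, 3.30, FDR 1.8e-04).

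The members that act in membrane traffic and at junctions were likewise highest at P14. Mal, a proteolipid of myelin membrane traffic, lay at 0.22, 0 and 0.29 CPM at E15.5, 1.97, 19.5 and 123.1 at P1, 21.2, 9.69 and 7.396 at P7, 197.6, 240.3 and 212.8 at P14. Pllp, plasmolipin, lay at 1.48, 1.25 and 1.16 CPM at E15.5, 5.96, 11.1 and 40.2 at P1, 31.6, 23.3 and 18.99 at P7, 66.8, 82.1 and 76.1 at P14. Cldn11, the claudin of myelin tight junctions, lay at 1.35, 1.503 and 1.68 CPM at E15.5, 23.7, 66.5 and 242.2 at P1, 84.2, 45.3 and 34.1 at P7, 388.4, 451.2 and 420.1 at P14. At P7 Mal stood at 5.88% of its P14 mean, Cldn11 at 12.99% and Pllp at 32.9%, and all 3 were called higher at P14 than at P7. Gjb1, the gap junction protein connexin 32, lay at 0.13, 0.17 and 0.13 CPM at E15.5, 0.6, 1.67 and 10.3 at P1, 1.96, 1.05 and 0.85 at P7, 17.5, 23 and 19.9 at P14. Tspan2, a tetraspanin of the lineage, lay at 5.801, 6.68 and 7.17 CPM at E15.5, 18.3, 39 and 183.7 at P1, 77.9, 50.6 and 28.7 at P7, 273.3, 262.2 and 246.8 at P14. Both were called higher at P14 than at P7, by 3.96 ± 0.75 (FDR 0.0091) for Gjb1 and 2.31 ± 0.63 (FDR 0.033) for Tspan2. Opalin, a glycoprotein of myelin, lay at 0.087, 0 and 0 CPM at E15.5, 0, 1.51 and 8.18 at P1, 1.695, 0.44 and 0.31 at P7, 13.4, 19.7 and 16.3 at P14. Ermn, a cytoskeletal protein of late oligodendrocytes, lay at 0.044, 0 and 0.11 CPM at E15.5, 0.26, 2.71 and 27.6 at P1, 7.39, 3.39 and 1.66 at P7, 37.8, 46.1 and 38.6 at P14. With 2 counts of Opalin and 5 of Ermn at E15.5, the ratios of P1 to E15.5 were 124 (exact 95% counting interval 33.8 to 1025) and 156 (66.6 to 482). Most of these P1 counts came from the library labelled P1 replicate 3, and without it the ratios were 28.99 (7.51 to 248) and 22.6 (9.27 to 71.6). Plekhb1, a protein with a pleckstrin homology domain, lay at 1.09, 0.84 and 0.81 CPM at E15.5, 12.6, 19.6 and 45.1 at P1, 37.4, 43.3 and 20.6 at P7, 66.8, 82.2 and 72.8 at P14. It was one of 4 members called higher at P14 than at P1 (1.52 ± 0.43, FDR 0.042; without P1 replicate 3, 2.20, FDR 0.0026).

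Enzymes of myelin lipid metabolism rose as well. Ugt8a, which makes galactosylceramide, lay at 10.8, 12.9 and 11.5 CPM at E15.5, 23.6, 41.6 and 217.6 at P1, 89.5, 82.1 and 45.8 at P7, 319.8, 332.5 and 301.4 at P14. Fa2h, which adds a hydroxyl group to its fatty acid, lay at 0.7, 0.67 and 0.81 CPM at E15.5, 1.67, 8.26 and 51.7 at P1, 19.2, 12.8 and 13.1 at P7, 84.7, 77.2 and 77.1 at P14. Aspa, which frees acetate from N-acetylaspartate, lay at 0, 0 and 0.079 CPM at E15.5, 2.75, 4.73 and 9.31 at P1, 4.09, 2.04 and 0.73 at P7, 13.9, 16.8 and 14.2 at P14. All 3 were called higher at P14 than at P7, by 2.13 ± 0.58 (FDR 0.032), 2.41 ± 0.73 (FDR 0.049) and 2.69 ± 0.54 (FDR 0.011). Aspa had 3 counts at E15.5, and its ratio of P1 to E15.5 was 139 (exact 95% counting interval 47.3 to 678), or 92.2 (31.1 to 451) without P1 replicate 3. The lysophosphatidic acid receptor Lpar1 lay at 2.31, 2.84 and 3.78 CPM at E15.5, 20.1, 28.8 and 29.2 at P1, 22.3, 20 and 10.8 at P7, 30.2, 34.5 and 29.8 at P14. It was called higher at P1 than at E15.5 (3.12 ± 0.34, FDR 6.3e-06; without P1 replicate 3, 3.03, FDR 3.1e-05), and its highest P1 library lay just below its lowest P14 library.

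Sirt2 and Qdpr, both also known from cells outside this lineage, had no such low start. The deacetylase Sirt2, abundant in myelin, lay at 93.5, 97.97 and 148.4 CPM at E15.5, 106.8, 104.2 and 199.7 at P1, 223.2, 204.2 and 234.3 at P7, 283.3, 319.6 and 322.6 at P14. Its P14 libraries were above all others, and its log2 fold change for P14 against P1 was 1.17 ± 0.25 (FDR 0.014; without P1 replicate 3, 1.55, FDR 4.5e-04). Qdpr, a reductase that regenerates tetrahydrobiopterin, ranged from 44.4 to 113 CPM over the 12 libraries of the 4 ages and was called in none of the pairwise comparisons. Together with Bcas1 they held the highest levels per kilobase of transcript at E15.5, at 61.5 ± 16.5 CPM per kilobase for Sirt2, 42.3 ± 14.9 for Qdpr and 34.1 ± 6.64 for Bcas1, against 7.12 ± 1.18 for Mbp and 0.097 ± 0.013 for Sox10. At P14 the order per kilobase was led by Mbp at 461 ± 28.1, Cnp at 356 ± 20.5 and Cldn11 at 228 ± 17.0, of 28 members with a usable transcript length. Myrf had no transcript row, and the transcript model of Enpp6 is shorter than what was counted.

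**Figure D2:**
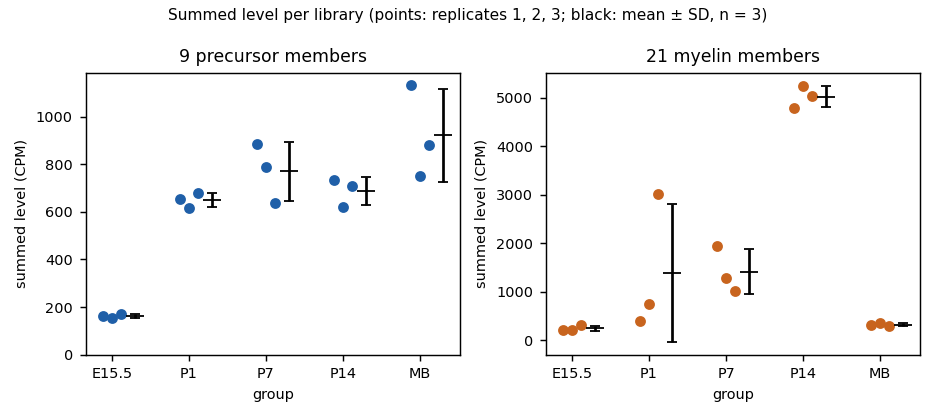
Summed CPM of the 9 precursor members (left) and the 21 myelin members (right) in each library, by group, with the mean and SD of 3 libraries in black. The precursor sums lie between 617 and 1134 CPM in every group but E15.5, and the myelin sums reach 4789 to 5231 CPM at P14 and stay at 297 to 355 CPM in MB.

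Between P7 and P14 most myelin members rose, while 1 precursor member fell. Of the 21 myelin members, 13 were called higher at P14 than at P7 and 0 lower, and of the 9 precursor members 0 were called higher and 1, Pdgfra, lower. Among all genes 5.81% were called higher and 4.51% lower. At an unadjusted p under 0.05 edgeR had 18 myelin members higher and 0 lower and 1 precursor member higher, and DESeq2 called 12 myelin members higher and 0 lower and 0 precursor members higher. The median log2 fold change was 2.41 for the myelin members, 0.02 for the precursor members and -0.0050 over all genes. The summed level of the myelin members was 1418 ± 472 CPM (SD, n = 3) at P7 and 5016 ± 221 at P14. The members called were Nkx6-2, Mog, Cnp, Mal, Cldn11, Ermn, Opalin, Pllp, Tspan2, Gjb1, Ugt8a, Fa2h and Aspa. The fit shares its spread with P1, and a fit of the P7 and P14 libraries alone called 21 of 21 myelin members, beside 2257 of 14810 genes called higher. Without P7 replicate 2 the fit of all groups called 0, without P14 replicate 2 it called 1, and without P7 replicate 3, P14 replicate 1 or P14 replicate 3 between 4 and 5. Over all genes the number called higher fell too, from 886 of 15259 to 86 of 15480 without P7 replicate 2 and 89 of 15449 without P14 replicate 2. It was 470 without P7 replicate 3, 271 without P14 replicate 1 and 268 without P14 replicate 3. Beside these, 5 of 8 granule neuron, 1 of 10 astroglial and 2 of 7 endothelial markers were called higher at P14 than at P7. So was 1 of 6 choroid plexus markers, with a median log2 fold change of 2.88 over the 6. The part of other cells was not tested.

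The myelin members differed in how far they had come by P7. As a percentage of the P14 mean, Sirt2 stood at 71.5%, Qdpr at 64.8%, Myrf at 57.5%, Lpar1 at 56.3% and Plekhb1 at 45.7%. Mbp stood at 40.4%, Pllp at 32.9% and Cnp at 24.2%. Mog stood at 7.91%, Gjb1 at 6.39%, Mal at 5.88% and Opalin at 4.95%. Of the precursor members, Pdgfra stood at 209.8%, Bcas1 at 144% and Nkx2-2 at 116%, and the lowest was Olig1 at 49.7%.

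The P1 libraries differed among themselves in the myelin members. The median over the myelin members, as a percentage of the P14 mean, was 5.32% and 13.1% in P1 replicates 1 and 2 and 60.6% in the library labelled P1 replicate 3, and it was 28.1%, 16.1% and 11.5% at P7. In that P1 library 20 of the 21 myelin members lay above their P7 mean, with Sirt2 as the exception, and the late members stood close to the others, with Mog at 52.1%, Mal at 56.8%, Opalin at 49.7%, Mbp at 56.1% and Myrf at 73.2%. Only 3 of its 9 precursor members (Cspg4, Olig1 and Enpp6) lay above their P7 mean. Of 8 granule neuron markers, 5 (Gabra6, Cbln3, Grin2c, Etv1 and Calb2) lay above every P7 library in it, Neurod1 and Rbfox3 lay below every P7 library, and Cntn2 lay inside the P7 range. The median over the 8 was 64.2% of the P14 mean there and 15.8% to 29.0% in the P7 libraries, while their sum was 74.2% there and 81.3% to 85.6% at P7. The cause was not tested.

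**Figure D3:**
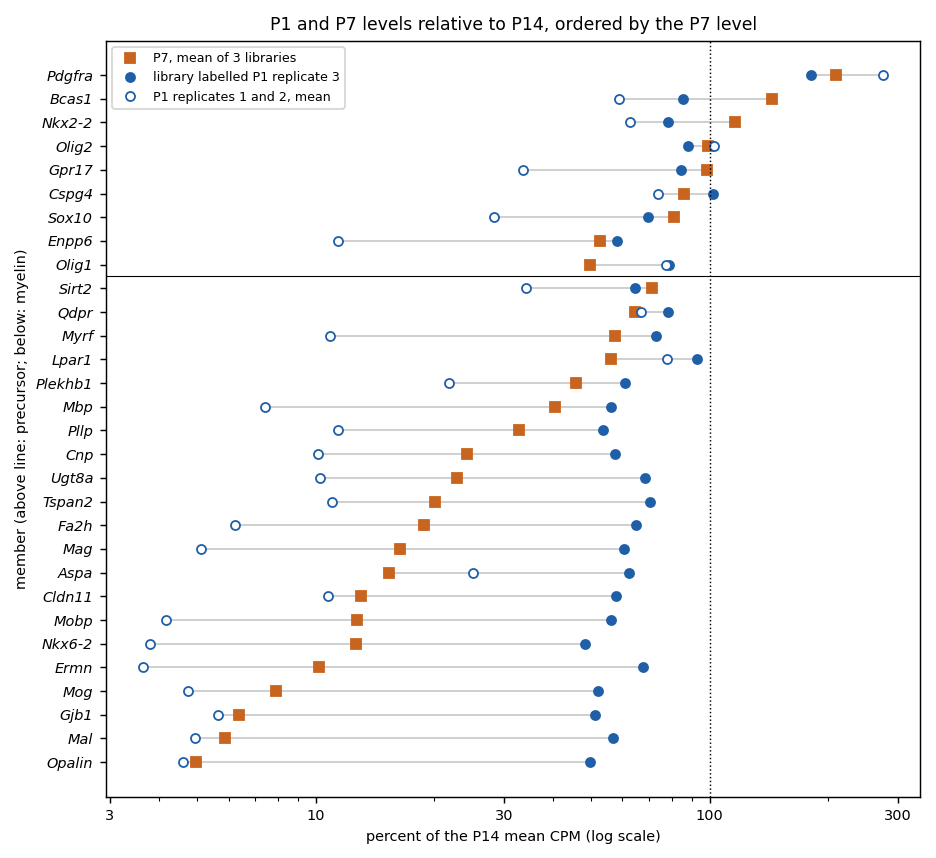
Level of each member as a percentage of its P14 mean, on a logarithmic axis, in P7 (squares, mean of 3 libraries), in the library labelled P1 replicate 3 (filled circles) and in P1 replicates 1 and 2 (open circles, mean). Myelin members spread from 4.95% to 71.5% at P7, whereas in the library labelled P1 replicate 3 they lie between 48.3% and 92.6%.

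With all 3 P1 libraries, 0 of 30 members were called higher and 0 lower at P7 than at P1, where 1.4% of all genes were called higher and 1.74% lower. At an unadjusted p under 0.05 edgeR had 4 higher and 3 lower, and DESeq2 called 1 higher (Bcas1) and 0 lower. Without the library labelled P1 replicate 3, 8 of 30 were called higher at P7, 4 of each kind, and 0 lower, beside 3.12% and 2.61% of all genes. The 4 myelin members were Mbp (2.44, FDR 0.0091), Myrf (2.40, FDR 0.010), Pllp (1.53, FDR 0.016) and Sirt2 (1.07, FDR 0.014). For P14 against P1, 4 myelin members (Cnp, Pllp, Plekhb1 and Sirt2) and 0 precursor members were called higher and Pdgfra was called lower (-1.29 ± 0.32, FDR 0.027), beside 3.63% and 5.31% of all genes. The Pdgfra call was lost without P1 replicate 1 (FDR 0.14), P1 replicate 2 (FDR 0.12) or any P14 library (FDR 0.080 to 0.12). At an unadjusted p under 0.05 edgeR had 3 precursor members higher, and DESeq2 called 2. Without that library 22 members were called higher, 19 of them myelin members, and Pdgfra lower, beside 9.54% and 7.96% of all genes, and the median of the myelin members moved from 1.95 to 3.30, against 0.0052 and -0.0043 over all genes. Among the largest were Ermn at 4.76 (FDR 0.0011), Nkx6-2 at 4.70 (FDR 0.0017) and Mobp at 4.59 (FDR 0.0033). Leaving out P1 replicate 1, P1 replicate 2, P14 replicate 2 or P14 replicate 3 instead left 0 called higher, and leaving out P14 replicate 1 left 1. Over all genes these fits called 2, 5, 9, 9 and 46 genes higher, in the same order, against 554 with all libraries. The loss was thus not particular to the members.

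Ratios between 2 members within a library do not depend on how libraries are scaled. The ratio of Mbp to Mog counts was 33.9, 37.0 and 27.7 at P7 and 6.79, 6.10 and 6.74 at P14. It was 13.3, 9.55 and 7.02 in the P1 libraries, so that each P1 library lay between the 2 ages and the library labelled P1 replicate 3 lay next to P14. At E15.5 it was 2.46, 2.26 and 3.60, on 112 to 168 counts of Mog.

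**Figure D4:**
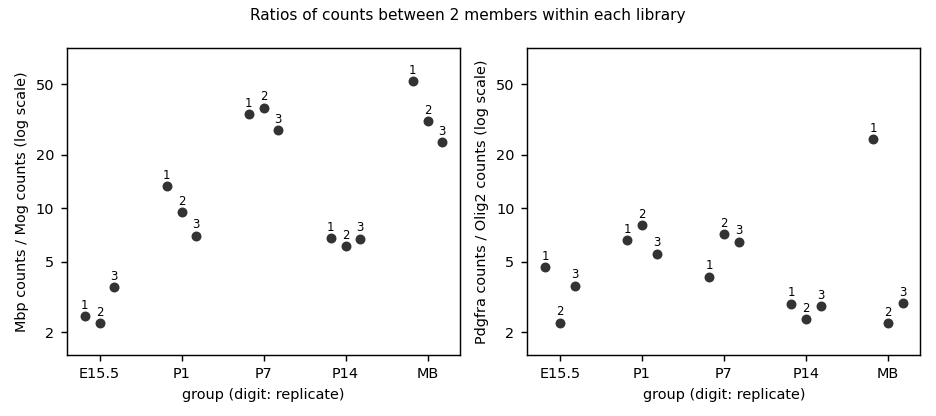
Ratio of Mbp to Mog counts (left) and of Pdgfra to Olig2 counts (right) in each library, on logarithmic axes, with the replicate number above each point. The Mbp to Mog ratio is 27.7 to 37.0 at P7 and 6.10 to 6.79 at P14, and the Pdgfra to Olig2 ratio of MB replicate 1 is 24.5, beside 2.25 and 2.92 in the other MB libraries.

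In the medulloblastoma cells most myelin members were lower than at P7 and P14, and the precursor members went in both directions. The summed level of the myelin members was 326 ± 29.0 CPM (SD, n = 3), near the 247 ± 53.4 at E15.5, and that of the precursor members was 922 ± 195 CPM, of which Pdgfra held 491 CPM. The sum of the other 8 precursor members was 431 ± 96.1 CPM. Few members held most of the low myelin sums. Sirt2 and Qdpr, also known from cells outside the lineage, held 113 and 59.3 CPM of the E15.5 myelin sum. In MB they held 87.5 and 81.7 CPM and Plekhb1 49.8 CPM. Bcas1 held 105 CPM of the precursor sum at E15.5. The precursor members made up 67.9% to 77.7% of the sum of all 30 in MB, 31.3% to 38.3% at P7 and 10.6% to 13.3% at P14. The share was 62.1%, 45.0% and 18.4% in the P1 libraries and 35.9% to 43.0% at E15.5, so P1 replicate 1 lay next to MB. Of the 21 myelin members, 15 were called lower in MB than at P7 and 0 higher, and 19 were called lower than at P14 and 0 higher. No myelin member was higher at an unadjusted p under 0.05 with edgeR, or called higher by DESeq2. Of the 9 precursor members, 2 were called higher and 4 lower in each comparison. Among all genes 13.7% were called higher and 20.7% lower against P7, and 22.9% higher and 27.2% lower against P14. The median log2 fold change of the myelin members was -3.31 against P7 and -5.54 against P14, and that of the precursor members was -0.12 and -0.22, with 0.02 and 0.01 over all genes. MB differs from the precursors in genotype and has no labelled age. Many markers of other cell types were lower in MB as well. Against P7, 7 of 7 endothelial, 7 of 7 fibroblast, 5 of 7 pericyte, 7 of 10 astroglial, 5 of 6 Purkinje and 5 of 6 interneuron markers were called lower, and against P14 7 of 7, 7 of 7, 7 of 7, 7 of 10, 5 of 6 and 5 of 6. The endothelial sum was 19.9 to 33.2 CPM in MB and 288 to 353 at P7, the astroglial sum 1688.5 to 2172 and 2375 to 4802, and the interneuron sum 9.45 to 13.01 and 219 to 307. Of 8 granule neuron markers 3 were called lower than at P7 and 8 lower than at P14, with 0 higher in either. Of 6 choroid plexus markers 1 was called lower than at P7 and 4 lower than at P14. Some markers went the other way. Of 10 microglial markers, 5 were called higher in MB than at P7. Of the 10 astroglial markers 2 were called higher than at P7 and 0 than at P14, and of the 6 interneuron markers 1 was called higher in each comparison. No marker of these lists was at 0 counts in either group, and their part in the lower myelin members was not tested.

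Pdgfra lay at 813.3, 274.1 and 384.2 CPM in MB. It was called higher than at P7 (1.05 ± 0.32, FDR 0.019) and at P14 (2.12 ± 0.33, FDR 9.2e-05), and every MB library lay above the P14 libraries, while MB replicate 2 lay inside the range of P7. The call against P7 was lost without MB replicate 1 (0.47, FDR 0.14), P7 replicate 1 (FDR 0.057) or P7 replicate 3 (FDR 0.070). Olig2 lay at 33.2, 122 and 131.6 CPM. It was called higher than at P7 (1.21 ± 0.41, FDR 0.032) and at P14 (1.19 ± 0.41, FDR 0.024), with MB replicate 1 inside the range of P7 and below P14 and the other 2 above both. The call against P7 was lost without MB replicate 2 (0.99, FDR 0.11) or MB replicate 3 (0.91, FDR 0.13), and without P7 replicate 2 (FDR 0.080) or P7 replicate 3 (FDR 0.11). The call against P14 was lost without MB replicate 2 or 3 or any P14 library, with FDR between 0.057 and 0.1. Olig1 lay at 34.7, 167.6 and 160.8 CPM and was not called against P7 (0.83 ± 0.45, FDR 0.175) or P14 (-0.18 ± 0.45, FDR 0.76). Without MB replicate 1 it was called higher than at P7 (1.27, FDR 0.0056). MB replicate 1 thus had the highest Pdgfra and the lowest Olig1 and Olig2 of the 3 tumour libraries. It also lay in the counting set of the P7 libraries, and MB replicates 2 and 3 lay in that of P1 and P14.

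Cspg4 lay at 18.6, 34.7 and 36.4 CPM and Bcas1 at 212.4, 89.5 and 137.2 CPM. Both overlapped with P7, and their log2 fold changes against P7 were -0.01 ± 0.34 (FDR 0.99) and -0.12 ± 0.30 (FDR 0.79). Pdgfra also marks fibroblasts and Cspg4 pericytes. The sum of 7 other fibroblast markers was 20.5 to 33.2 CPM in MB and 424 to 655 at P7, and that of 7 other pericyte markers was 33.6 to 52.2 and 300.2 to 459, with no marker at 0 counts over a group. Single markers differed. The fibroblast collagen Col1a1 lay at 1.94, 1.25 and 1.16 CPM in MB, and the fibroblast marker Dcn at 8.69, 2.30 and 1.80. The pericyte marker Abcc9 lay at 24.9, 4.08 and 2.76 CPM in MB and at 26.8, 21.7 and 26.6 at P7. The part of these cells was not tested.

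Sox10 lay at 10.4, 29.6 and 15.01 CPM in MB, below all P7 and P14 libraries and above all E15.5 libraries. It was called lower than at P7 (-1.25 ± 0.38, FDR 0.019) and at P14 (-1.55 ± 0.38, FDR 0.0035). The call against P7 was lost without P7 replicate 1 (FDR 0.091), MB replicate 1 (FDR 0.060) or MB replicate 3 (FDR 0.067). The ratio of Olig2 to Sox10 counts was 3.18, 4.12 and 8.77 in MB, 0.92 to 0.97 at P7 and 0.67 to 0.86 at P14. Members of the next step were lower still. Nkx2-2 lay at 0.95, 5.01 and 1.68 CPM (-3.03 ± 0.46 against P7, FDR 1.2e-04). Gpr17 lay at 10.8, 28.7 and 13.2 CPM (-3.23 ± 0.43, FDR 3.45e-05). Enpp6 lay at 0, 0.17 and 0.08 CPM, on 9 counts, and its P7 to MB ratio was 54.9 (exact 95% counting interval 28.7 to 121). The 4 precursor members called lower in MB are therefore Sox10, Nkx2-2, Gpr17 and Enpp6, in both comparisons.

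Of the regulators among the myelin members, Myrf lay at 1.19, 2.101 and 0.92 CPM in MB, 4.74 ± 0.72 below P7 on the log2 scale (FDR 1.2e-04). Nkx6-2 lay at 0.16, 0.24 and 0.92 CPM and was called lower than at P14 (-4.74 ± 0.99, FDR 9.7e-04) but not than at P7 (-1.76 ± 0.94, FDR 0.17). Mbp lay at 47.5, 36.5 and 28.4 CPM, above its E15.5 libraries and below those of P7 (-3.63 ± 0.70, FDR 8.3e-04). Mobp lay at 1.23, 0.29 and 0.64 CPM. For Mobp the P7 to MB ratio was 66.2 (exact 95% counting interval 51.2 to 87.1). Mag lay at 0.59, 1.17 and 0.76 CPM and had the largest difference of all members, at -6.44 ± 1.16 against P7 (FDR 4.9e-04) and -9.05 ± 1.27 against P14 (FDR 3.6e-05). Mog lay at 0.91, 1.17 and 1.201 CPM, below its E15.5 libraries, and Cnp at 17.2, 26.5 and 17.5 CPM, overlapping with them.

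The other myelin members were low in MB with few exceptions. Mal lay at 2.38, 0.88 and 0.64 CPM, Cldn11 at 4.52, 9.97 and 6.404 and Tspan2 at 14.8, 7.45 and 4.84. Gjb1 lay at 0.16, 0.49 and 0.16 CPM, Ermn at 0.32, 0.17 and 0.24 and Opalin at 0.12, 0.073 and 0. Of these 6, Mal, Cldn11, Tspan2 and Ermn were called lower than at P7, all 6 were called lower than at P14, and the P14 to MB ratio of Opalin was 252 (exact 95% counting interval 115 to 687). The lipid enzymes Ugt8a, Fa2h and Aspa lay at 8.89, 8.99 and 4.803 CPM, at 0.87, 1.44 and 0.84 and at 0.2, 0.12 and 0.2, and Lpar1 at 7.54, 3.49 and 4.603. These 4 were called lower in both comparisons. Pllp lay at 10.4, 17 and 9.81 CPM and was called lower than at P14 only (-2.59 ± 0.50, FDR 5.7e-04). Plekhb1 lay at 80.4, 40.9 and 28.1 CPM and was called in neither comparison (0.56 ± 0.42 against P7, FDR 0.34, and -0.57 ± 0.42 against P14, FDR 0.28). Without MB replicate 1 it was called lower than at P14 (-1.10, FDR 0.045). Qdpr lay between 54.0 and 96.2 CPM and was called in neither. Sirt2 lay at 71.4, 99.8 and 91.2 CPM and was called lower in both, by -1.33 ± 0.25 (FDR 6.7e-04) and -1.82 ± 0.25 (FDR 3.3e-05).

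**Figure D5:**
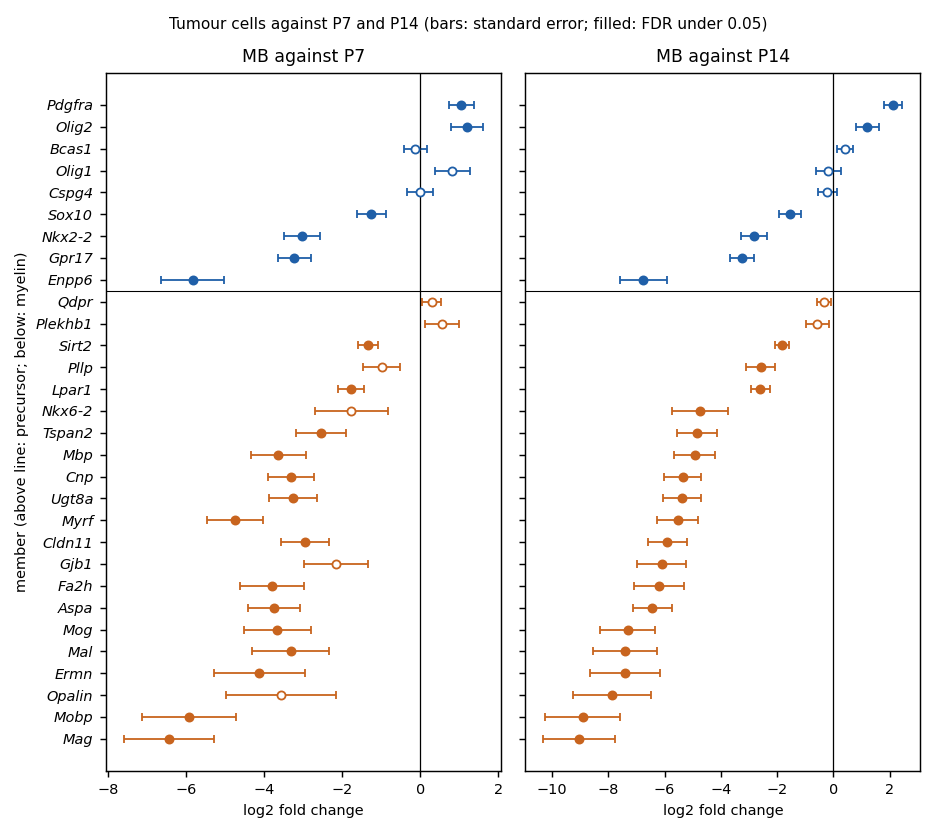
Log2 fold change of each member for MB against P7 (left) and MB against P14 (right), with the standard error as a bar and filled points for an FDR under 0.05, precursor members above the line and myelin members below it. Pdgfra and Olig2 are filled on the positive side, and the lowest points are Mag at -6.44 against P7 and -9.05 against P14.

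A further 35 oligodendrocyte genes, 9 of precursors and 26 of myelin, were listed beside the members. Of the 26, 21 were called higher and 2 lower at P1 than at E15.5, 11 higher and 0 lower at P14 than at P7, 2 higher and 12 lower in MB than at P7, and 1 higher and 20 lower in MB than at P14. Of the 9, 8 were called higher and 1 lower at P1 than at E15.5, 0 higher and 1 lower at P14 than at P7, and 1 higher and 4 lower in MB than at P7 and than at P14. Without the library labelled P1 replicate 3, 16 of the 26 were called higher and 3 lower at P1 than at E15.5, and of the 9 the counts were again 8 and 1. For P14 against P1, 2 of the 26 were called higher and 0 lower with that library, and 18 higher and 1 lower without it. Over all genes, 25.4% were called higher and 20.9% lower at P1 than at E15.5, or 22.5% and 17.6% without that library. The shares were 5.81% and 4.51% for P14 against P7, and 3.63% and 5.31% for P14 against P1, or 9.54% and 7.96% without it. For MB they were 13.7% and 20.7% against P7 and 22.9% and 27.2% against P14. C1ql1, a secreted protein of precursors, lay at 7.197, 5.01 and 9.72 CPM at E15.5, 18.4, 17.5 and 34.8 at P1, 64.9, 77.3 and 70.4 at P7, 53.5, 46.3 and 61.1 at P14, and at 139.8, 273.5 and 344.7 in MB. It was called higher in MB than at P7 (1.83 ± 0.33, FDR 4.6e-04) and than at P14 (2.24 ± 0.33, FDR 5.8e-05), and it was the gene of this list called higher at P7 than at P1 (1.59 ± 0.33, FDR 0.022; without P1 replicate 3, 1.98, FDR 0.0066). Klk6, a serine protease of mature oligodendrocytes, and Hapln2, a link protein at nodes of Ranvier, had the largest rises from P7 to P14. Their log2 fold changes were 7.67 ± 1.36 (FDR 0.0090) and 5.06 ± 0.91 (FDR 0.0087), with Klk6 at 0, 0 and 0 CPM at E15.5, 0, 0.078 and 1.32 at P1, 0.029, 0 and 0 at P7, 2.12, 3.86 and 2.98 at P14. Klk6 had 1 count at P7, and its P14 to P7 ratio was 291 (exact 95% counting interval 51.8 to 11536). Gjc3, a gap junction protein, and Neu4, a sialidase, had the largest rises from E15.5 to P1, at 9.38 ± 0.70 (FDR 2.7e-07) and 7.44 ± 0.95 (FDR 2.4e-05), or 8.62 (FDR 3.9e-07) and 6.34 (FDR 2.2e-05) without P1 replicate 3. With 3 counts of Gjc3 and 2 of Neu4 at E15.5, the ratios were 761 (exact 95% counting interval 260.0 to 3691) and 209 (57.6 to 1734.5), or 443 (151 to 2152) and 95.9 (26.0 to 800.2) without P1 replicate 3. Gjc3 lay at 21.5, 16.9 and 22.5 CPM in MB. Tmem125, a membrane protein, and Cdk18, a kinase, had the lowest values in MB against P7, at -5.68 ± 1.15 (FDR 0.0012) and -4.43 ± 0.76 (FDR 3.2e-04). Gsn, the actin-severing protein gelsolin, and Lims2, an adhesion protein opposite Gpr17, were called higher at P14 than at P1 (1.89 ± 0.56, FDR 0.048, and 1.59 ± 0.43, FDR 0.035), by 3.15 (FDR 4.4e-04) and 2.32 (FDR 0.0013) without P1 replicate 3.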

How the data were processed

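Sequencing libraries of 15 mouse samples (poly(A) RNA, TruSeq v2, per the labels' protocols) were used. The authors deposited raw read counts per gene, per transcription start site model and per transcript. The submitters' processing notes name Trimmomatic, TopHat, StringTie, HTSeq and the mm9 build; settings and versions are not given in the sources used here. Records in no gene (14.1% to 29.2%) or with several alignments (22.9% to 44.6%) were kept out of totals. Symbols were matched by gene ID for 20358 of 21889 genes.

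Tests on the gene counts used edgeR 4.0.16 (R 4.3.3; filterByExpr, minimum count 10, minimum total 15; TMM; 1 mean per group over all 15 libraries, 10 residual degrees of freedom; quasi-likelihood F-test, Benjamini-Hochberg FDR over 15259 genes). Log2 fold changes carry standard errors taken from the F statistic. Ratios on few counts carry exact 95% intervals, which cover counting error only. On simulated counts for P14 against P1 (15017 genes), 53% of 2-fold and 100% of 4-fold changes were recovered and 0.061% of unchanged genes were called. The simulation gave every gene the same spread, held no outlying library and changed only genes with many counts. Its recovery therefore does not describe P14 against P1 in the data, where Mobp (2.22, FDR 0.14) and Mal (2.17, FDR 0.13) were not called. Alternatives were DESeq2 1.42.0, RLE scaling, no filter, the compared groups alone, both other tables, a replicate block, libraries of 1 counting set and leaving out each library. Members and lists were chosen with earlier results of these data known. All members are accounted for; levels are printed per library for those preset or called with a log2 change of at least 2, and of the further genes for the 2 largest called changes each way per comparison; 1 gene that this rule names is not reported here.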

Additional observations from a re-analysis of the deposited data

How the results depend on the processing

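Of 2390 values of a member in a comparison under an alternative, 2177 kept their side of the threshold. Another 144 lost the call, 68 gained it and 1 that was called in the main fit reversed. Changes of direction where neither fit called the member are among the 2177. At P7 against P1, for example, Cnp moved from -0.097 to 1.26 without P1 replicate 3, and Mog from -1.38 to 0.74. The reversal was Olig2 in MB against P7 with libraries of 1 counting set (-0.27), where MB is 1 library and the value has no replicate check. Members called higher at P1 than at E15.5 numbered 16 within 1 counting set (fewer libraries). At P7 against P1 DESeq2 called 1 higher. At P14 against P7 the compared groups alone gave 23, counts per start site model 5 (20 members only), and RLE scaling 0 lower. At P14 against P1 DESeq2 gave 12 higher, the compared groups alone 7, counts per start site model 2 and 1 counting set 8. In MB the compared groups alone gave 0 higher against P7 and 1 against P14, and counts per start site model gave 11 and 14 lower. Leaving out 1 library gave 0 to 8 higher for P7 against P1, 0 to 9 higher and 0 lower for P14 against P7, 0 to 22 higher and 0 to 1 lower for P14 against P1, 0 to 2 higher in MB against P7 and 1 to 2 against P14. Over all genes, leaving out 1 library gave 1 to 484 called higher for P7 against P1, 86 to 507 for P14 against P7 and 2 to 1479 for P14 against P1. With the compared groups alone 2257 of 14810 genes were called higher for P14 against P7 and 1919 of 14833 for P14 against P1. DESeq2 called 1198 of 14944 genes higher for P14 against P1, and 1 counting set 2180 of 15574, against 554 in the main fit. Counts per start site model called 531 of 16354 there and 850 for P14 against P7. For P7 against P1 DESeq2 called 509 of 15240 higher. In MB the compared groups alone called 1343 of 14490 genes higher against P7 and 3184 of 14791 against P14. Counts per start site model called 3318 and 4350 of 16354 lower in MB. Causes were not tested beyond the smaller tables.

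Replicate numbers were not taken as pairs: the correlations of same-numbered deviations ran from -0.239 to 0.332 and in no comparison did all 3 exceed 0.1, nor did every library correlate best with its own number. With a replicate block 8 members were called higher at P14 than at P7 and 1 in MB than at P7.

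Precursor sums moved to 150.7 CPM at E15.5 and 706 at P1 with plain library sizes, and to 145, 595.5 and 625 at E15.5, P1 and P14 with counts per transcript, where the myelin sums were 4452 at P14 and 295 in MB. Genes with under 10 counts in a group, such as Opalin, Aspa and Enpp6 at E15.5, have wide intervals.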

Other observations

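Some genes listed with the oligodendrocyte lineage ran against it. Pcdh15, a protocadherin used as a precursor marker, lay at 116.7, 131.2 and 62.4 CPM at E15.5, 51.6, 34.3 and 28.5 at P1, 20.3, 28.7 and 25.2 at P7, 7.96, 4.58 and 8.69 at P14, and at 17.02, 12.3 and 8.01 in MB. It was called lower at P1 than at E15.5 (-1.44 ± 0.34, FDR 0.0030), at P14 than at P7 (-1.80 ± 0.35, FDR 0.0095) and at P14 than at P1 (-2.43 ± 0.35, FDR 0.0016). Without P1 replicate 3 the values against P1 were -1.27 (FDR 0.017) for P1 against E15.5 and -2.60 (FDR 4.2e-04) for P14 against P1. Zfp488, a zinc finger factor of oligodendrocyte differentiation, lay at 36.9, 54.6 and 21.8 CPM at E15.5, 10.9, 8.49 and 11.6 at P1, 8.07, 6.51 and 4.85 at P7, 11.7, 9.37 and 8.72 at P14, and at 2.697, 1.98 and 1.56 in MB, and was called lower at P1 than at E15.5 (-1.87 ± 0.32, FDR 2.8e-04; without P1 replicate 3, -1.96, FDR 0.0011). For both genes each E15.5 library lay above all others.

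Trf and Anln, listed as myelin genes, were called higher in MB, Trf against P7 and Anln against P14, where 12 and 20 of the 26 listed were lower. Trf, transferrin, lay at 0.31, 0.17 and 0.79 CPM at E15.5, 0.99, 2.67 and 6.33 at P1, 1.43, 0.72 and 1.77 at P7, 9.41, 11.6 and 10.3 at P14, and at 3.61, 6.08 and 4.68 in MB (1.88 ± 0.56 against P7, FDR 0.016). Anln lay at 39.95, 45.1 and 39.4 CPM at E15.5, 100.4, 102.3 and 81.3 at P1, 81.04, 97.7 and 97.4 at P7, 66.7, 66.9 and 74.1 at P14, and at 168.5, 171.4 and 135.7 in MB (1.20 ± 0.15 against P14, FDR 1.7e-05). Anln encodes anillin, which also acts in cell division. Car2, carbonic anhydrase 2, lay at 3.97, 6.26 and 6.22 CPM at E15.5, 30.8, 72.96 and 57.2 at P1, 22.3, 18.8 and 22.1 at P7, 71.2, 94.8 and 74.4 at P14, and P7 was below P1 (-1.35 ± 0.34, FDR 0.046), a call lost without P1 replicate 3 (-1.30, FDR 0.061).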
